A study of Mus musculus with 8 samples.

Results

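Wnt signalling genes were followed through mouse embryonic stem cells (ESCs), primordial germ cells (PGCs, the embryonic precursors of sperm and egg) derived from them in culture, and epiblast stem cells (EpiSCs, which are cultured from the epiblast after implantation and are pluripotent). The set held 45 genes, chosen by name from the ligands, Frizzled receptors, Lrp co-receptors, secreted inhibitors, cytoplasmic effectors and TCF/LEF factors of the pathway. Of these, 41 had a probe among the 16593 genes of the array, each represented by its probe with the highest mean signal. A total of 27 were detected (detection p under 0.01) on at least 1 of the 8 arrays, and 13 were detected on all 8. Fzd5, Fzd9, Axin1 and Tcf7 had no probe under these names in the annotation used.

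Illumina MouseRef-8 v2 bead arrays were used to measure RNA. Gcnf (the product of Nr6a1) is an orphan nuclear receptor that acts mainly as a repressor. The groups were wt ESCs, Gcnf-deficient (Gcnf -/-) ESCs, and the PGCs of each genotype after 12 and 15 days of differentiation, each with 1 array, and EpiSCs that carry no Gcnf knockout, with 2 arrays labelled as replicates. The labels give every sample the C57BL/6 strain, and they also enter every sample, ESCs and EpiSCs included, under the cell type PGC. Per the methods, ESCs were kept with LIF on irradiated mouse embryonic fibroblasts, differentiation took place in serum without either, and PGCs were sorted for an Oct4-GFP reporter that lacks the proximal enhancer. The methods name male and female wt lines and a female Gcnf -/- line but not the line on each array, so genotype and cell line cannot be told apart. Nothing says that the EpiSC arrays came from separate cultures, so p-values measure only the spread between these samples, which may be technical. Fits over the ESC and PGC arrays have no replicates, and stages or days stand in for them. Their SEs and p-values measure how a difference varies between stages, days or genotypes, not between cultures.

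In canonical Wnt signalling a secreted, lipid-modified Wnt protein binds a Frizzled receptor together with Lrp5 or Lrp6. Dishevelled is then recruited, the complex of Axin, Apc and Gsk3b that marks beta-catenin for destruction is held off, and beta-catenin enters the nucleus, where TCF/LEF factors turn on targets such as Axin2, Sp5 and Notum. In mouse ESCs the pathway is known to favour self-renewal, mainly by relieving repression by Tcf7l1, and in the embryo Wnt3 is needed for epiblast cells to become able to form PGCs.

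Between 18 and 20 of the 41 members were detected per array, beside 6931 to 7739 of all 16593 genes, and median raw signals were 137.5 to 189.1. The EpiSC arrays differed with an SD of 0.26 in log2 over the 9638 probes detected on both. The 18 members detected on both had an SD of 0.21, the widest gap was 0.52 (Apc), and 0 were 2-fold apart, beside 0.11% of genes higher and 0.151% lower on the second array by that limit. Fibroblast markers were detected for 15 of 18 genes on the wt ESC array (median log2 signal 8.77, summed signal 14.62 in log2), for 9 on the Gcnf-deficient ESC array (5.71 and 11.70) and for 3 to 5 on each other array (3.51 to 4.01 and 8.76 to 11). Their part in the results below was not tested. The Y-linked gene Eif2s3y was detected on the wt day-12 array alone (11.64, against 2.35 to 4.68), so the wt arrays differed in this signal. The labels do not give the line on each array. Stage and cell line therefore cannot be told apart among the wt arrays, in any comparison of wt stages below. All 7 pluripotency markers were detected on the ESC and PGC arrays, and 5 and 4 on the EpiSC arrays. Of 8 primed epiblast markers, 6 were detected on the EpiSC and wt day-12 arrays and 5 on each other array, with median signals of 10.25 and 10.31 in EpiSCs against 6.22 to 8.31. The summed log2 signals of these markers were 15.55 and 15.50 in EpiSCs against 11.57 to 13.57, with wt day 12 at 13.48. Among them Fgf5 gave 10.81 and 11.25 in EpiSCs and 6.89 on wt day 12, and was undetected elsewhere. Of 8 PGC markers, 5 or 6 were already detected on the ESC arrays and 6 or 7 on the PGC arrays, with Prdm1 below detection on all 8. The Nr6a1 probe was detected on all 8 arrays. The sources used here do not say whether it lies in the deleted part, so it is no check of the labels.

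Signals below are normalized log2 values. With 1 array per condition, a pair of conditions allows no test, and a member was counted as different where the arrays were at least 2-fold apart and the brighter side was detected. Where the dimmer side was not detected, it was set at the lowest signal detected on its array, and the fold is then a lower bound, written "at least". Fewer cells of a type and less RNA per cell cannot be told apart on these arrays.

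The co-receptors Lrp6 and Lrp5 had opposite patterns. In wt cells Lrp6 was detected at each stage, at 7.14 in ESCs and at 7.30 and 8.00 in PGCs of days 12 and 15. In Gcnf-deficient cells it gave 4.36, 3.63 and 4.65 at the same stages and was not detected. Raw signals were 338.1, 300.1 and 495.3 for Lrp6 on the wt arrays and 139.7, 119.4 and 141.9 on the Gcnf-deficient arrays, close to those arrays' median raw signals of 146, 137.5 and 143.4. Genotypes did not overlap, but here and for members below no share of all genes with such a separation is given. Lrp6 was thus lower in Gcnf-deficient cells by at least 2.71-fold in ESCs, at least 2.62-fold on day 12 and at least 5.04-fold on day 15. It was also below detection on both arrays of EpiSCs (5.30 and 4.74), which carry no Gcnf knockout.

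Lrp5, the closest relative of Lrp6 and able to stand in for part of its function in the mouse, gave 4.88, 6.32 and 5.34 in wt ESCs, day-12 and day-15 PGCs and was detected only on day 12. In Gcnf-deficient cells Lrp5 gave 6.49, 6.91 and 6.59, and in EpiSCs 7.55 and 7.54, detected on all 5 arrays. Every Gcnf-deficient array was thus above every wt array for Lrp5, by a narrow margin at the nearest pair (6.49 against 6.32), and the EpiSC arrays were highest. The difference reached the 2-fold limit on day 15 (at least 2.31-fold higher). It was 1.51-fold on day 12 and at least 1.65-fold in ESCs. Lrp6 and Lrp5 have a single probe each on this array.

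Across the 3 stages, with stage as a block, the fitted difference (Gcnf-deficient minus wt, undetected signals as they stand) was −3.27 ± 0.30 (SE, log2) for Lrp6 and 1.15 ± 0.31 for Lrp5. Neither passed (limma, Benjamini-Hochberg adjusted p = 0.114 and 0.242). Lrp6 passed under 4 of 12 alternative settings, its adjusted p running from 0.00792 to 0.509, and Lrp5 under 0 of 12. The low Lrp6 signal without Gcnf was known from earlier results of these arrays, so the fit is no independent evidence for it.

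**Figure D1:**
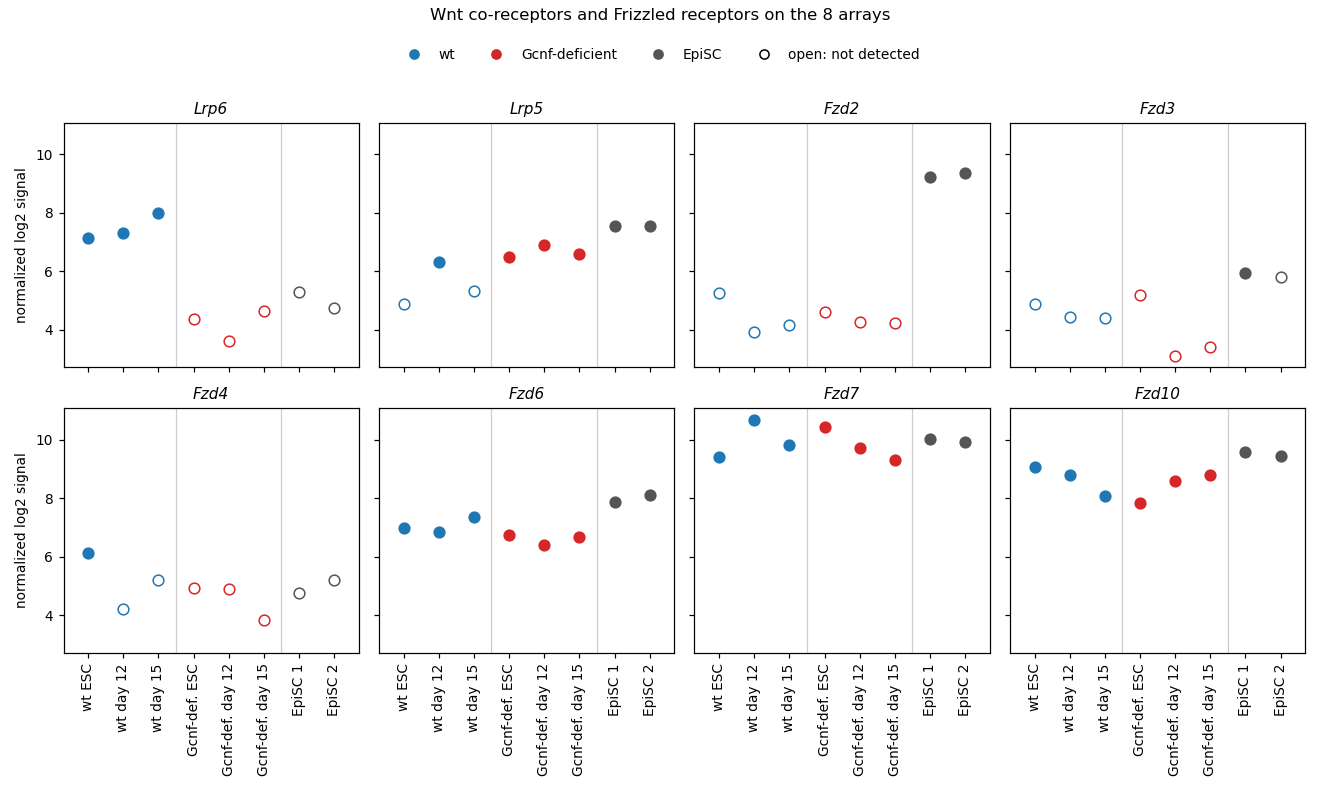
Normalized log2 signal (y axis) of Lrp6, Lrp5 and the 6 detected Frizzled receptors on each of the 8 arrays (x axis), 1 point per array, blue for wt, red for Gcnf-deficient and grey for EpiSC arrays, open where the probe was not detected. Lrp6 is detected on the 3 wt ESC and PGC arrays only, and Fzd2 on the 2 EpiSC arrays only.

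The Frizzled receptors, the seven-pass membrane proteins that bind Wnts, did not show the Lrp6 pattern of detection. Of 8 probed, Fzd6, Fzd7 and Fzd10 were detected on all 8 arrays, Fzd2, Fzd3 and Fzd4 on 1 or 2, and Fzd1 and Fzd8 on 0. None of the 8 was detected on all wt and lacking on all Gcnf-deficient arrays.

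Fzd7, a receptor known to support ESC self-renewal, gave 9.39, 10.69 and 9.81 in wt ESCs, day-12 and day-15 PGCs and 10.42, 9.72 and 9.32 in Gcnf-deficient cells. The genotypes overlapped. Gcnf-deficient ESCs were 2.04-fold higher than wt ESCs (under 2-fold with median scaling, which lowered the median of all genes in this pair by a log2 shift of −0.21), whereas Gcnf-deficient PGCs were lower by 0.97 on day 12 and 0.49 on day 15 in log2. EpiSCs gave 10.03 and 9.91, within the range of the other arrays.

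Fzd10 gave 9.08, 8.79 and 8.07 in wt ESCs, day-12 and day-15 PGCs and 7.84, 8.59 and 8.78 in Gcnf-deficient cells. These arrays also overlapped, with Gcnf-deficient ESCs lowest, 2.37-fold below wt ESCs. The second Fzd10 probe detected on all arrays gave 7.43, 6.17 and 7.62 in wt cells and 6.65, 7.15 and 7.38 in Gcnf-deficient cells. In ESCs both probes were lower without Gcnf, but only the first was lower on wt day 15 than in wt ESCs, so that stage difference holds for 1 probe.

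Fzd6, linked mainly to planar polarity, gave 6.97, 6.86 and 7.36 in wt cells and 6.74, 6.39 and 6.68 in Gcnf-deficient cells. Each wt array was above each Gcnf-deficient array for Fzd6, the direction of Lrp6, by a narrow margin at the nearest pair (6.86 against 6.74). The difference was less than 2-fold at each stage. Fzd6 was highest in EpiSCs, at 7.88 and 8.13. Fzd2, a receptor for Wnt3a and Wnt5a, was at 3.94 to 5.25 and undetected on the 6 ESC and PGC arrays but gave 9.23 and 9.35 in EpiSCs. Fzd4 was detected in wt ESCs alone, at 6.13, and Fzd3 on 1 EpiSC array alone, at 5.95 beside 5.79 on the other. Fzd1 and Fzd8 stayed below detection on all arrays.

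Members at least 2-fold apart between the genotypes were counted at each stage. In ESCs, 6 of 22 members detected in either genotype were at least 2-fold lower in Gcnf-deficient cells and 1 was higher, beside 6.25% of 7837 genes lower and 6.78% higher. The lower members were Wnt5a (at least 2.31-fold), Wnt5b (at least 2.13-fold), Fzd10 (2.37-fold), Lrp6 (at least 2.71-fold), Dkk3 (2.63-fold) and Axin2 (2.61-fold), and the higher one was Fzd7. The median difference was −0.40 in log2 for the members and −0.015 for all genes. The split of 1 higher and 6 lower became 3 and 4 with the mean of a gene's probes, and 0 and 0 without background correction. The wt array of this pair carried more fibroblast marker signal, as given above.

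On day 12, 6 of 21 members were lower and 1 higher in Gcnf-deficient PGCs, beside 3.37% and 2.92% of 7562 genes. Lef1 was lower by at least 4.15-fold, Sfrp2 by 3.10-fold, Lrp6 by at least 2.62-fold, Axin2 by 2.24-fold, Wnt7b by 2.21-fold and Porcn by 2.08-fold, while Sfrp1 was 2.05-fold higher. The wt array of this pair is the one with Eif2s3y signal. On day 15, 1 of 20 members was lower (Lrp6) and 1 higher (Lrp5), beside 8.1% and 11.5% of 8134 genes, shares no smaller than the members'. How many of all genes were lower at all 3 stages at this limit is not given here. Among the members Lrp6 alone was so. Its log2 differences in ESCs, on day 12 and on day 15 were −0.90, −0.91 and −1.60 with an offset of 50, and −0.58, −0.61 and −1.11 without background correction, so that with these settings Lrp6 met the limit on day 15 only. Endoderm markers were detected for 8 of 11 genes in Gcnf-deficient and 5 in wt day-15 PGCs (summed log2 signal 12.23 and 10.71, median 7.11 and 5.30). On day 12 they were detected for 7 and 6 genes, with summed signals of 11.80 and 11.07. Their day-12 medians, 6.36 and 6.46, went the other way. The median PGC marker signal was 9.32 and 10.90 on day 15 and 8.27 and 9.96 on day 12. The part of cell composition in the day-12 and day-15 differences was not tested. Axin2 was lower at 2 stages and higher on day 15 by 0.46 in log2, less than 2-fold.

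In the genotype fit across stages, 0 of 25 members passed (limma), beside 0.00786% of 12717 probes passing higher (1 probe) and 0% passing lower. At an unadjusted p under 0.05, 1 member was higher (Lrp5) and 3 were lower (Lrp6, Wnt3a and Wnt5b), beside 6.69% and 6.74% of probes. Wnt3a, a canonical ligand, rested on signals near the detection limit, with 5.47 on the wt day-15 array the single detected value. In the test of whether the PGC-minus-ESC difference depended on genotype, 0 of 25 members passed and 0 had an unadjusted p under 0.05, beside 3.17% of probes higher and 2.85% lower at that unadjusted limit and 0% after adjustment. The smallest adjusted p among members there was 0.839.

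**Figure D2:**
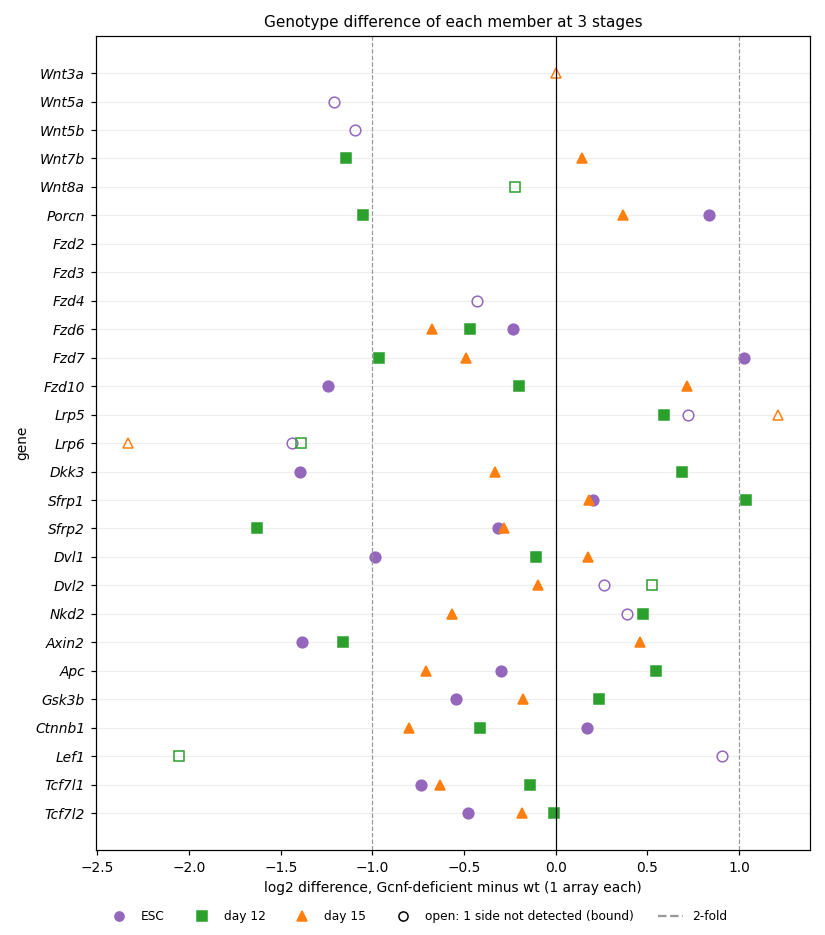
Log2 difference, Gcnf-deficient minus wt (x axis), for each detected member (y axis) in ESCs (circles), day-12 PGCs (squares) and day-15 PGCs (triangles), 1 array per genotype at each stage, with open symbols for bounds where 1 side was not detected and dashed lines at 2-fold. Lrp6 is left of the 2-fold line at all 3 stages, and members undetected in both genotypes have no symbol.

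Few ligand genes gave a signal. Of 12 ligands probed, 7 were below detection on all arrays (Wnt2b, Wnt3, Wnt4, Wnt6, Wnt7a, Wnt10a and Wnt11), and each of the other 5 had its own pattern. Wnt7b gave 3.55 in wt ESCs and 3.28 in Gcnf-deficient ESCs, both undetected, and was detected in every PGC sample, at 7.10 and 6.91 on days 12 and 15 in wt and 5.96 and 7.05 in Gcnf-deficient cells. It was undetected in EpiSCs (2.34 and 2.80). With this probe, Wnt7b was thus detected on all 4 PGC arrays and on neither ESC array. The second Wnt7b probe was detected on 0 arrays (2.72 to 3.74), so the pattern rests on 1 probe.

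Wnt8a, a ligand of the early embryo's posterior epiblast and primitive streak, gave 8.02 and 8.17 in EpiSCs and 6.14 in wt day-12 PGCs, and lay between 3.02 and 3.77, undetected, on the other 5 arrays. Its other probes, 2 in number, gave 6.56 and 8.14 on the first EpiSC array and 6.59 and 7.93 on the second, and neither was detected on day 12 (4.96 and 5.45 in wt). The EpiSC signal of Wnt8a thus appeared with every probe, and the day-12 signal passed detection with 1.

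Wnt5a, the main non-canonical ligand, was detected in wt ESCs alone, at 6.91, against 2.52 to 4.44 elsewhere, with a single probe. The other Wnt5a probe was detected on 0 arrays and gave 3.50 in wt ESCs. Wnt5b gave 6.80 in wt ESCs, 6.21 and 6.40 in EpiSCs, and 3.30 to 5.18, undetected, on the 5 other arrays. The wt ESC array was also the one on which 15 of 18 fibroblast markers were detected, and the part of feeder cells in the Wnt5a and Wnt5b signals was not tested.

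Porcn, the X-linked gene of the acyltransferase that adds the lipid every Wnt needs for secretion, was detected on all arrays. It gave 10.10, 11.25 and 9.01 in wt ESCs, day-12 and day-15 PGCs, 10.93, 10.20 and 9.37 in Gcnf-deficient cells, and 7.10 and 6.98 in EpiSCs. The EpiSC arrays were below every other array. Within each genotype the day-15 array was the lowest, 2.13-fold below the ESC array in wt and 2.95-fold below it in Gcnf-deficient cells. The second Porcn probe gave 7.06, 7.51 and 5.62 in wt cells, 7.64, 6.16 and 5.55 in Gcnf-deficient cells, and 4.66 and 3.95, undetected, in EpiSCs. It was likewise lower on day 15 than in ESCs in both genotypes and lowest in EpiSCs, while the order of the other arrays differed between the probes.

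Among the secreted inhibitors, Sfrp1, Sfrp2 and Dkk3 were detected and Dkk1 and Sfrp5 were not. Sfrp1, a secreted Frizzled-related protein that binds Wnts outside the cell, gave 8.08, 9.27 and 9.71 in wt ESCs, day-12 and day-15 PGCs and 8.28, 10.31 and 9.89 in Gcnf-deficient cells. All 4 PGC arrays were above both ESC arrays, and the EpiSC arrays were the lowest (7.84 and 7.61). Sfrp2, of the same family, gave 6.84, 8.01 and 7.12 in wt cells, 6.53, 6.38 and 6.83 in Gcnf-deficient cells, and 9.69 and 9.45 in EpiSCs. The family's members thus differed in where they were high, Sfrp1 in PGCs and Sfrp2 in EpiSCs. Dkk3, a divergent Dickkopf family member, gave 8.75, 7.49 and 8.93 in wt and 7.36, 8.17 and 8.60 in Gcnf-deficient cells, and was undetected in EpiSCs (5.50 and 5.24). Another Dkk3 probe, detected on 6 arrays, gave 8.17, 7.62 and 8.47 in wt and 7.41, 7.67 and 8.46 in Gcnf-deficient cells. With that probe, Dkk3 was under 2-fold apart between ESC genotypes and between the wt days. A further probe was detected on 0 arrays.

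**Figure D3:**
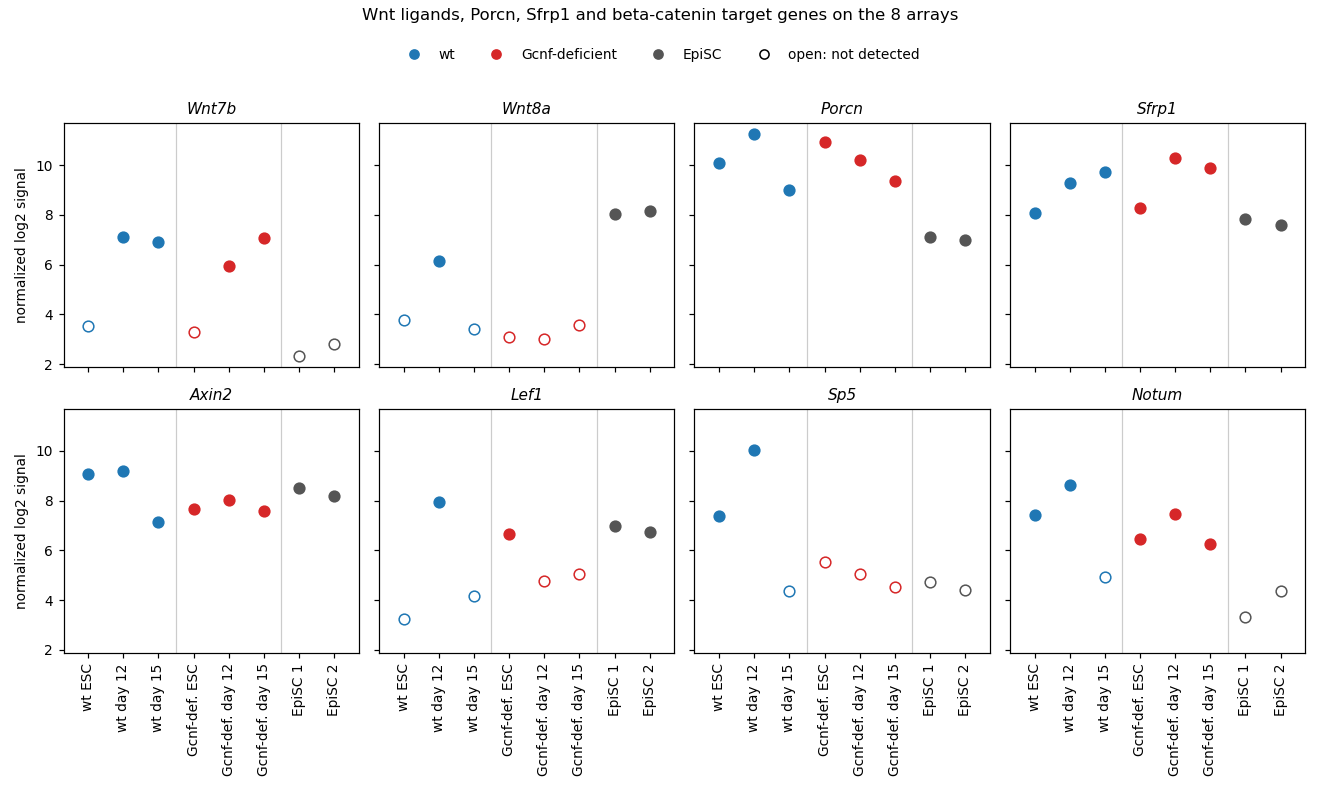
Normalized log2 signal (y axis) of the ligands Wnt7b and Wnt8a, Porcn, Sfrp1 and the target genes Axin2, Lef1, Sp5 and Notum on each of the 8 arrays (x axis), 1 point per array, coloured by group and open where not detected. Wnt7b is detected on the 4 PGC arrays only, and Lef1, Sp5 and Notum have their highest signals on the wt day-12 array (7.97, 10.03 and 8.63).

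Among the cytoplasmic members, Ctnnb1, which encodes beta-catenin, gave 13.16, 14.00 and 14.29 in wt ESCs, day-12 and day-15 PGCs, 13.33, 13.59 and 13.49 in Gcnf-deficient cells, and 13.38 and 13.42 in EpiSCs. Wt day-15 PGCs were 2.19-fold above wt ESCs, and its second probe gave 11.52 and 12.26 there, a smaller difference. With median scaling the Ctnnb1 difference was under 2-fold. The kinase Gsk3b gave 6.66 to 7.91 over the ESC and PGC arrays and 8.14 and 8.32 in EpiSCs. Apc, a scaffold of the destruction complex, stayed between 6.40 and 7.75. Dvl1, a Dishevelled adaptor, lay between 7.59 (Gcnf-deficient ESCs) and 8.87 (Gcnf-deficient day 15). Dvl2 was near the detection limit, at 4.54 to 6.39 and detected on 4 arrays, and Dvl3 was not detected. Nkd2, a Dishevelled-binding inhibitor, gave 5.48, 6.09 and 7.52 in wt cells and 6.16, 6.56 and 6.95 in Gcnf-deficient cells, the day-15 array being the highest of each genotype, while Nkd1 was not detected.

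Axin2 encodes an inhibitor of the pathway that beta-catenin itself induces, and is its usual readout. It gave 9.06 in wt ESCs, 9.20 on wt day 12 and 7.14 on wt day 15, against 7.68, 8.04 and 7.60 in Gcnf-deficient cells and 8.52 and 8.18 in EpiSCs. Wt ESCs and wt day-12 PGCs were the highest arrays and wt day 15 the lowest. Among known targets that are not members, Sp5, a zinc-finger repressor, gave 7.38, 10.03 and 4.35 in wt cells and was undetected in all Gcnf-deficient cells (5.52, 5.06 and 4.55) and in EpiSCs (4.73 and 4.42). Notum, a secreted esterase that removes the Wnt lipid, gave 7.43, 8.63 and 4.93 in wt, 6.47, 7.47 and 6.28 in Gcnf-deficient cells, and was undetected in EpiSCs (3.33 and 4.36). Axin2, Sp5 and Notum were thus each highest on the wt day-12 array and lower on wt day 15, by 4.19-fold, at least 25.1-fold and at least 9.52-fold. That array was also the one with Eif2s3y signal and the one ESC or PGC array with Fgf5 signal, as given above. Of the primed epiblast markers, Fgf5, Pou3f1, Zic2 and Sfrp2 were highest there among the ESC and PGC arrays. Otx2 and Dnmt3b were not, and Sox3 and Cdh2 were undetected. Not every target on the wider list peaked there. In wt ESCs, day-12 and day-15 PGCs, Cdx1 gave 8.04, 7.25 and 5.72 and Ccnd1 gave 12.36, 11.56 and 9.84. Myc was detected in wt ESCs alone (6.52), whereas Tbx3 gave 10.21, 10.90 and 9.62 at these stages.

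Of the TCF/LEF factors, Lef1 gave 3.23, 7.97 and 4.16 in wt ESCs, day-12 and day-15 PGCs, 6.68, 4.78 and 5.07 in Gcnf-deficient cells, and 6.98 and 6.73 in EpiSCs. It was detected in wt day-12 PGCs, Gcnf-deficient ESCs and EpiSCs only. The second Lef1 probe was detected on 0 arrays (3.66 on wt day 12 and 3.11 in Gcnf-deficient ESCs), so the Lef1 pattern and its folds rest on 1 probe. Tcf7l1 (Tcf3), the repressor of pluripotency genes, gave 11.32, 11.05 and 11.30 in wt cells, 10.59, 10.91 and 10.67 in Gcnf-deficient cells, and 12.54 and 12.52 in EpiSCs. Each wt array was above each Gcnf-deficient array for Tcf7l1, by less than 2-fold, and the EpiSC arrays were the highest. Tcf7l2 (Tcf4) gave 7.30, 7.90 and 8.10 in wt and 6.82, 7.89 and 7.92 in Gcnf-deficient cells, with all 4 PGC arrays above both ESC arrays.

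Promoter sequences are shown for members in which a TCF/LEF motif lay near an annotated start, since these are the stretches where the pathway's own factors could act. The RefSeq table (GRCm38.p6, 300 bases around each start) held entries for 26 of the 41 probed members and 15 of the 27 detected ones. The letters CTTTG followed by AA, AT, TA or TT were found on either strand in 7 of 34 member entries, or 20.6%, beside 16.9% of all 32851 entries. A match is a description of the letters, not a binding site. The windows of the detected members, written along the gene's strand with the match in capitals, are as follows, the Lef1, Tcf7l2 and Wnt5b ones lying at starts inside the gene.
Fzd7, chr1:59482006-59482035, plus strand: tccacagagaaAACAAAGcgcgctattgga
Lef1, chr3:131156136-131156165, plus strand: caacctcagaaTACAAAGtaggattgcatt
Tcf7l2, chr19:55895291-55895320, plus strand: caaacaaaatatcaggCTTTGTTcttttga
Wnt5b, chr6:119449439-119449468, minus strand: agtaagtctctCTTTGATctgctccctgtc

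The 4 genes had no common pattern over the arrays, as their signals above show. The nuclear receptor half-site AGGTCA, the unit of the direct repeat that Gcnf is known to bind, was in 16.3% of all entries on either strand and in 0 of the 34 member entries, which says only that these letters are not in these windows. Lrp6, Lrp5, Fzd2, Wnt7b and Porcn had no entry, so their promoters were not searched for either motif.

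Between ESCs and PGCs, members differed in both directions. In wt cells 4 of 22 members were at least 2-fold higher on day 15 than in ESCs (Wnt7b, at least 2.19-fold, Sfrp1, 3.10-fold, Ctnnb1, 2.19-fold, and Nkd2, at least 3.34-fold) and 5 were lower (Wnt5a, at least 2.90-fold, Wnt5b, at least 2.67-fold, Axin2, 3.80-fold, Porcn, 2.13-fold, and Fzd10, 2.01-fold), beside 13.1% and 13.8% of 8188 genes. In Gcnf-deficient cells 6 of 19 were higher on day 15 (Sfrp1, 3.06-fold, Wnt7b, at least 2.55-fold, Dvl1, 2.44-fold, Dkk3, 2.36-fold, Tcf7l2, 2.14-fold, and Gsk3b, 2.10-fold) and 3 lower (Porcn, 2.95-fold, Fzd7, 2.15-fold, and Lef1, at least 2.02-fold), beside 8.26% and 5.49% of 7892 genes. Wnt7b, Sfrp1 and Porcn met the limit in the same direction in both genotypes.

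From ESCs to day 12, 6 of 23 wt members were higher and 3 lower, beside 10.3% and 7.4% of 7826 genes, and 2 of 19 Gcnf-deficient members were higher and 0 lower, beside 5.68% and 3.48% of 7709 genes. From day 12 to day 15, 3 of 22 wt members were higher (Dkk3, 2.72-fold, Nkd2, 2.69-fold, and Apc, 2.55-fold) and 3 lower (Lef1, at least 6.01-fold, Porcn, 4.74-fold, and Axin2, 4.19-fold), beside 6.81% and 11% of 8044 genes. In Gcnf-deficient cells only Wnt7b was 2-fold apart between the days (2.14-fold higher, 1 of 18 members, beside 0.916% of 7646 genes higher and 0.863% lower). More members, and more of all genes, were thus 2-fold apart between the wt days than between the Gcnf-deficient days, and the wt day-12 array is the one with Eif2s3y signal.

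With the genotypes and days pooled in 1 fit, 1 of 25 members passed, beside 0.291% of 12717 probes higher and 0.0708% lower. Wnt7b rose by 3.35 ± 0.36 (SE, log2) in PGCs (limma, adjusted p = 0.047). The call was lost without the day-12 arrays (0.0569), the day-15 arrays (0.267), the wt ESC array (0.303) or the wt day-12 array (0.0856), and without background correction (0.0639), with the difference positive in all 13 alternatives but running from 0.90 (no background correction) to 3.57. Wnt7b passed the detection filter only through the PGC arrays, where it was high. The fit sets ESC signals below detection as they stand, and the second Wnt7b probe was not detected on any array. Sfrp1 differed by 1.62 ± 0.29 and did not pass (adjusted p = 0.0755). At an unadjusted p under 0.05, 3 members were higher and 2 lower, beside 10.7% and 8.67% of probes.

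In EpiSCs, Wnt8a, Fzd2 and Sfrp2 were higher than in ESCs, and Porcn and Dkk3 were lower. In the fit of 2 EpiSC against 2 ESC arrays, 6 of 25 members rose and 2 fell, beside 10.7% of 12219 probes higher and 10.8% lower. Wnt8a rose by 4.67 ± 0.32 (SE, log2; limma, adjusted p = 0.00512), Fzd2 by 4.37 ± 0.30 (0.00536) and Sfrp2 by 2.89 ± 0.24 (0.00732). Wnt8a and Fzd2 were below detection in ESCs, and Dkk3 in EpiSCs, so each passed the detection filter only through the group where it was high. The sizes of their differences also depend on the background step. Without background correction they were 1.65, 2.26 and −1.26, and still passed. Sfrp2 is also on the primed epiblast marker list. Fzd6 rose by 1.15 ± 0.23, Tcf7l1 by 1.57 ± 0.32 and Gsk3b by 1.30 ± 0.28 (adjusted p = 0.0388, 0.0393 and 0.0439). The second Tcf7l1 probe, near the detection limit, gave 5.71 and 5.54 in EpiSCs and 4.73 and 5.78 in wt and Gcnf-deficient ESCs, which overlap. Porcn fell by 3.48 ± 0.35 (adjusted p = 0.0101) and Dkk3 by 2.68 ± 0.53 (0.036). At an unadjusted p under 0.05, 8 members were higher and 2 lower, beside 19.7% and 19.5% of probes.

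The ESC pair holds 1 array of each genotype, so the spread of this fit includes genotype. Lrp5 (1.86 ± 0.59, adjusted p = 0.0951) and Lrp6 (−0.73 ± 1.00, 0.624) did not pass, and for both the ESC arrays differed with genotype. Without the first EpiSC array Wnt8a and Fzd2 alone passed, and without the second Wnt8a alone, the remaining EpiSC array being assumed to vary like the ESC pair. Without the wt ESC array, the one with fibroblast markers, 13 of 22 members passed beside 41.3% of all probes, with the EpiSC pair as the only spread.

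As pairs, 8 of 24 members were at least 2-fold higher in EpiSCs than in wt ESCs and 3 were lower, beside 15.8% and 13.2% of 8119 genes. Against Gcnf-deficient ESCs 8 of 22 were higher and 2 lower, beside 14.4% and 12.3% of 8101 genes. The comparisons share the EpiSC arrays. Fzd2 was at least 11.4-fold higher than in wt and at least 12.0-fold higher than in Gcnf-deficient ESCs, Wnt8a at least 5.0-fold and at least 5.25-fold, and Sfrp2 6.64-fold and 8.25-fold. Porcn was 8.33-fold and 14.9-fold lower. Lrp6 was at least 2.25-fold lower than in wt ESCs and undetected in both EpiSCs and Gcnf-deficient ESCs, while Lrp5 was at least 3.41-fold and 2.07-fold higher in EpiSCs.

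**Figure D4:**
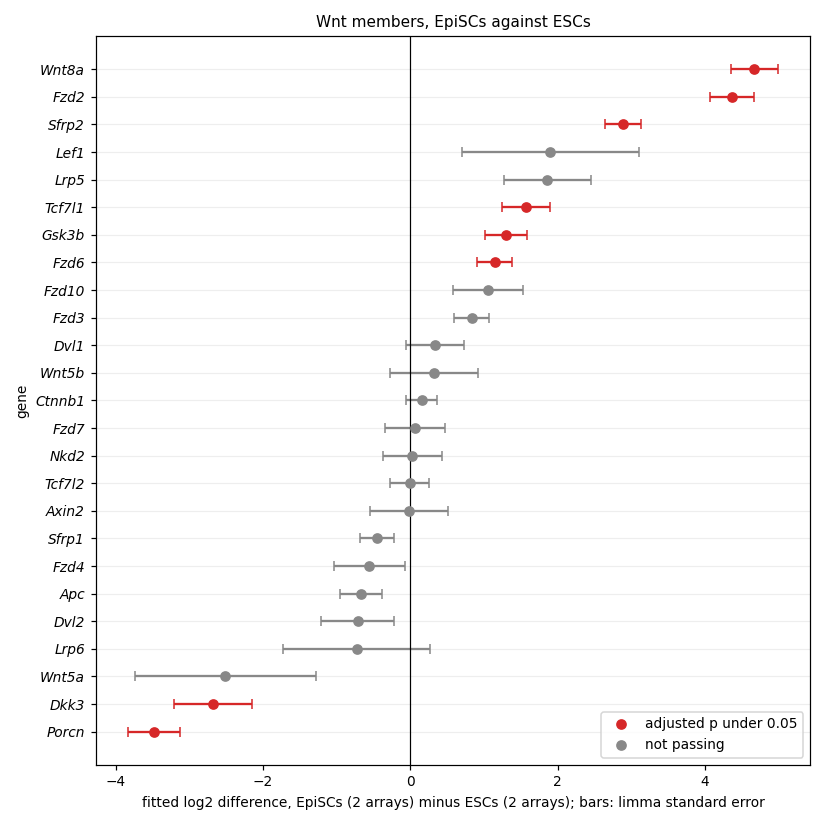
Fitted log2 difference, EpiSCs (2 arrays) minus ESCs (1 wt and 1 Gcnf-deficient array), on the x axis for each of the 25 members tested (y axis), with bars of 1 limma standard error and red for an adjusted p under 0.05. Wnt8a (4.67) and Fzd2 (4.37) are at the top, and Porcn (−3.48) and Dkk3 (−2.68) at the bottom.

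Among members detected on all 8 arrays and with a promoter entry, Sfrp2 and Tcf7l1 had the largest rises in EpiSCs, and the 250 bases before their starts are shown to compare their makeup (GRCm38.p6, along the gene's strand, GC boxes GGGCGG on the printed or opposite strand in capitals).
Sfrp2, chr3:83766071-83766320, plus strand: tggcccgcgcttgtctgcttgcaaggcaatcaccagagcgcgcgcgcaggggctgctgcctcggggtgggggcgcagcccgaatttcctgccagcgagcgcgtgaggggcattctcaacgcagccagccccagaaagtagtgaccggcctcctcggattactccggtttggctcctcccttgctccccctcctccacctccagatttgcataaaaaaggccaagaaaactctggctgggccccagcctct
Tcf7l1, chr6:72789046-72789295, minus strand: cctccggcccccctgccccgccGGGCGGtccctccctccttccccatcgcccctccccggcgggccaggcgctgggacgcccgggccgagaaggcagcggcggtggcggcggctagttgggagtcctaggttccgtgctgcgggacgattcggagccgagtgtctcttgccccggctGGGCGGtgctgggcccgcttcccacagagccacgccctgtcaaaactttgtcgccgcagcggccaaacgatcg

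The Sfrp2 stretch was 63.6% GC with 0 GC boxes and the Tcf7l1 stretch 73.6% GC with 2, beside a median of 52.4% GC and a GC box in 32.7% of all 32851 entries. Of these genes, which both rose in EpiSCs, 1 thus holds the motif in this stretch. The Sfrp2 start used lies inside the annotated gene, as does its stretch, while the Tcf7l1 stretch lies before its gene. The regions compared are thus unlike.

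**Figure D5:**
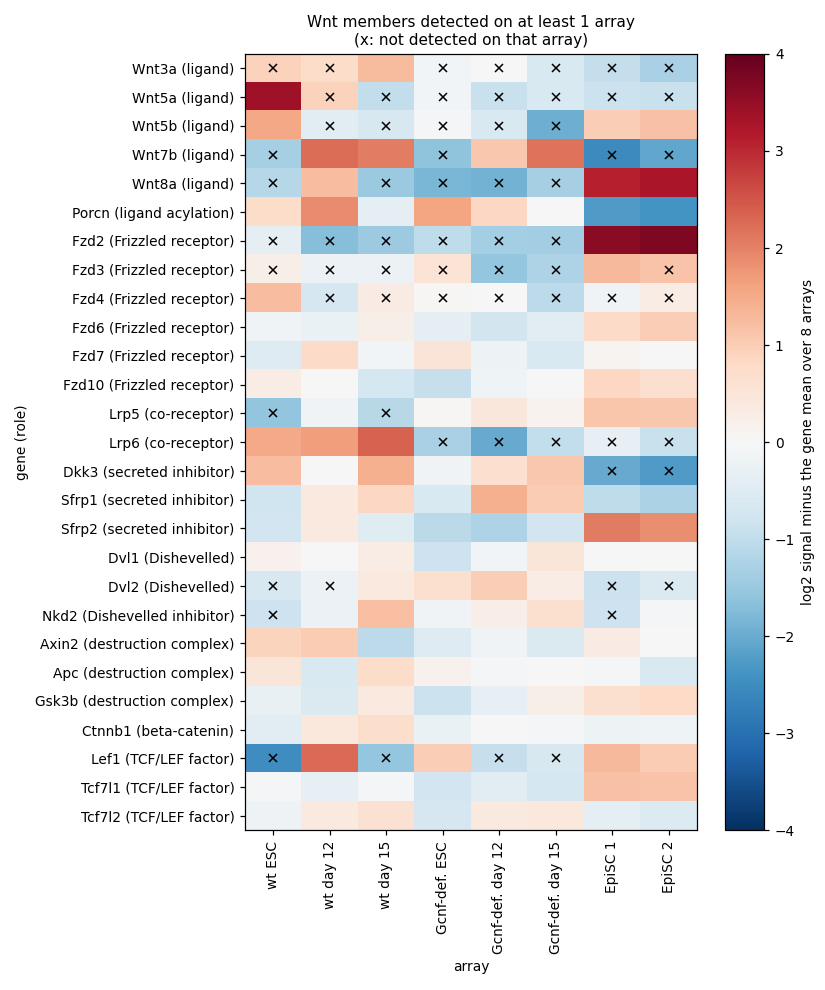
Log2 signal minus the gene's mean over the 8 arrays (colour scale, −4 to 4) for the 27 detected members (y axis, with their roles) on each array (x axis), with a cross where the member was not detected. Wnt8a, Fzd2 and Sfrp2 are darkest red on the EpiSC arrays, Lrp6 is red on the 3 wt ESC and PGC arrays, and Wnt5a is red on the wt ESC array.

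Another 75 genes of the pathway were counted beside the members, 68 of them probed and 36 detected. In the genotype fit and in the PGC fit 0 of 33 tested passed (limma). At an unadjusted p under 0.05, 3 were higher and 3 lower in the genotype fit, beside 6.69% and 6.74% of probes. In the PGC fit 5 were higher and 4 lower, beside 10.7% and 8.67% of probes. In the EpiSC fit 2 of 34 rose, namely Fgf8 (6.96, adjusted p = 0.00557), a growth factor of the primitive streak, and Cxxc4 (2.32, 0.0302), a Dishevelled-binding inhibitor. A further 7 fell, namely Notum, Kremen1, Vangl1, Cdx1, Tbx3, Esrrb and Klf2. Of all 12219 probes in this fit, 10.7% rose and 10.8% fell. Esrrb, Tbx3 and Klf2, factors of the naive pluripotent state, had fitted differences of −9.03, −7.26 and −6.90.

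Between genotypes, the genes of this wider list at least 4-fold apart were Wls, the carrier that takes Wnts to the cell surface, at 5.98 in Gcnf-deficient and 8.69 in wt ESCs (6.53-fold lower), and Sp5, at least 17.3-fold lower in Gcnf-deficient day-12 PGCs. From wt ESCs to wt day-15 PGCs, Wls was lower by at least 9.90-fold, the cell cycle gene Ccnd1 by 5.76-fold, Cdx1 by 5.01-fold and Notum by at least 4.16-fold. Wls, like Wnt5a and Wnt5b, was highest on the wt ESC array.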

How the data were processed

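The authors scanned the arrays and summarized bead intensities in BeadStudio 3.2. Raw signal intensity was deposited for each probe, with a detection p-value from the same software. A second deposited table gives the authors' log2 values, background-corrected by RMA and quantile-normalized. The raw signals were processed again by the same steps (RMA background model, log2, quantile normalization over 8 arrays, all 25697 probes) in R 4.3.3. Results correlated at 0.998 with the authors' values and were used because they keep the detection calls and allow other background treatments. Median log2 signals were 4.72 here and 3.20 in the authors' table, so folds of dim probes depend on the background step. Symbols came from the platform annotation (23978 probes with 1 symbol, 1719 with none).

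Tests used limma 3.58.1 over all probes detected on at least 1 fitted array (2 or 3 residual degrees of freedom), with Benjamini-Hochberg adjusted p under 0.05. Any detected member could be named. Values on every array were set for Lrp6, Lrp5, the Frizzleds and members past fixed fold limits, and other pathway genes were named at 4-fold or where the fit called them. Members, lists and rules were chosen with earlier results of these data known. The number of arrays limits the precision, and slide and scan were not given in the sources used here. The fits were tested on simulated data, but the outcome is not given here and is no evidence for the results above.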

Additional observations from a re-analysis of the deposited data

Results flagged for a closer look

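Fzd7 differed between genotypes in opposite directions by stage. Gcnf-deficient minus wt was 1.03 in log2 in ESCs, −0.97 on day 12 and −0.49 on day 15. Put the other way, wt PGCs were above wt ESCs by 1.29 on day 12 and 0.41 on day 15, whereas Gcnf-deficient PGCs differed from Gcnf-deficient ESCs by −0.7 and −1.1. The interaction of genotype with differentiation did not pass for Fzd7 (limma, adjusted p = 0.843), and the stage-by-stage differences themselves have no test with 1 array each. Fzd10 had the reverse arrangement, with PGC-minus-ESC differences of −0.29 (day 12) and −1.01 (day 15) in wt and 0.75 and 0.95 in Gcnf-deficient cells (limma, adjusted p = 0.864 for the interaction). The second Fzd10 probe detected on all arrays gave 7.43 in wt ESCs and 7.62 on wt day 15. Of the probes detected on all arrays, 1 thus showed the wt day-15 difference. The third probe, detected on 2 arrays, gave 6.02 in wt ESCs and 5.56 on wt day 15.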

How the results depend on the processing

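No paired analysis was possible because the groups compared share fewer than 2 replicate numbers. Pairing by stage is the genotype fit itself, and without its stage block Lrp6 had an adjusted p of 0.184 (limma). Members near background have folds that depend on its correction. The number of members passing the genotype fit moved from 0 to 1 (Lrp6) with neqc, an offset of 50, an intensity trend, or without the ESC arrays. In the PGC fit the 1 call became 2 with neqc, the offset or the trend, and 0 without the day-12, day-15, wt ESC or wt day-12 arrays. In the EpiSC fit the 8 calls became 5 with median scaling, with no detection filter, or with probes detected on every array, 14 with the wt ESC array only, 13 without it, and 2 and 1 without EpiSC replicates 1 and 2. All probes moved too, from 21.4% passing to 46%, 41.3%, 1.7% and 1.68% in those last 4 fits. The settings that leave out the wt ESC or the wt day-12 array alone were chosen after seeing the data. The interaction stayed at 0 members in all 9 alternatives run. The counts of members 2-fold apart fell with an offset of 50 and with no background correction, by construction, since both compress folds of dim probes. For genotype they moved from 7 to 3 and 0 in ESCs, from 7 to 4 and 1 on day 12, and from 2 to 1 and 1 on day 15 (also 1 with neqc). From ESCs to day 15 they moved from 9 to 5 and 3 in wt, and from 9 to 5 and 2 in Gcnf-deficient cells (5 with the mean of a gene's probes). For EpiSCs they moved from 11 to 7 and 6 against wt ESCs, and from 10 to 6 without background correction against Gcnf-deficient ESCs. With a 4-fold limit they were 0, 1 and 1 for genotype (ESCs, day 12, day 15), 0 and 0 from ESCs to day 15, and 5 and 4 for EpiSCs. With undetected signals as they stand, the ESC genotype count was 11. Median scaling shifted the median of all genes by −0.21 for ESC genotype, −0.23 from wt ESCs to wt day 15 and −0.11 from wt ESCs to EpiSCs, and took Fzd7, Ctnnb1, Fzd6 and Gsk3b under 2-fold there, Sfrp1 on day 12 and Lef1 from Gcnf-deficient ESCs to day 15. Over the 5 other normalizations and all pairs, 0 of 365 member differences of 2-fold or more reversed, each difference being counted once per normalization. All of these rescale the same raw signals, and the differences were picked for their size, so a reversal was unlikely by construction.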
